A study of Bos taurus with 16 samples.

Results

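The genes described here encode the major histocompatibility complex (MHC) of cattle, called BoLA, and the proteins that load and display peptides on it. Members were all loci whose gene name starts with BOLA or BLA-, other than the unrelated bolA family genes BOLA1, BOLA2B and BOLA3, together with B2M, TAP1, TAP2, TAPBP, CD74, CIITA, NLRC5, MIC1, MIC2 and MR1. The rule used names and no measured value. It gave 21 of the 22358 loci in the count tables, each counted once. They fall into 6 class I heavy chain loci, 4 class II chain loci, 5 loci of the class I light chain and peptide loading, 3 class I-like genes, 2 transactivators and the invariant chain.

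RNA was sequenced from 16 pools of expanded blastocysts of Holstein cows, made to compare embryos of dams on a control diet with those of dams on the same basal diet supplemented with rumen-protected methionine, from calving until embryo flushing. Each diet had 4 cows and each cow gave 2 pools, written here as C1.1 to C4.2 for the control and M5.1 to M8.2 for the methionine-rich treatment, with the cow before the point and the pool after it. All cows were superovulated and inseminated and the embryos flushed from the uterus by the study's methods, whereas the tissue label reads IVF embryos. By the study's supplement, some pools of either diet were a single blastocyst and most methionine-rich pools held more blastocysts than any control pool, so that blastocyst number and diet cannot be fully told apart. The quality number of the amplified RNA was lower in most methionine-rich pools than in any control pool that had one. RNA quality and diet therefore cannot be fully told apart either. The RNA was amplified before sequencing, and a pool is a small bulk sample in which fewer cells of a type and less RNA per cell cannot be told apart.

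MHC class I molecules consist of a heavy chain and the light chain beta-2-microglobulin, and show peptides from inside the cell to CD8 T cells. The TAP transporter carries these peptides into the endoplasmic reticulum and tapasin holds the empty heavy chain ready for them. MHC class II molecules are made mainly by professional antigen-presenting cells such as macrophages, dendritic cells and B cells, travel with the invariant chain, and show peptides from engulfed material to CD4 T cells. The trophoblast of the early conceptus is known for low class I and absent class II display.

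In 15 pools the total count lay between 5624126 and 7826542, with a median of 7257007. The tests leave out pool C3.2, following the study's methods. It had 1745048 counts, and 7 control and 8 methionine-rich pools remained. A count of 3 was taken as the floor of detection, which was 0.383 to 0.533 CPM (counts scaled to a pool total of 1000000) in the 15 pools and 1.72 CPM in C3.2. Of the 9 trophectoderm markers, 6 were over the floor in all 15 pools. KRT18, a keratin of simple epithelia, lay between 1757 and 6291 CPM and GATA2, a transcription factor of the trophectoderm, between 284 and 1737 CPM over the 15 pools. The others were less regular: the trophectoderm factor CDX2 had a median of 1.96 CPM and no count in 3 pools, the interferon tau gene IFNT no count in 13 pools, and IFNT2 a median of 3.34 CPM and no count in 1 pool.

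One control pool, C2.1, stood apart in markers of other cells. All 8 general leukocyte markers were over the floor in it, and their summed level was 1557 CPM against 2.31 to 125 CPM in the other 6 control pools and 0.81 to 90.2 CPM in the methionine-rich pools. LAPTM5, a lysosomal membrane protein gene of blood cells, gave 1239 CPM of that sum. All 8 markers of macrophages, monocytes and neutrophils were over the floor as well, at a summed 613 CPM against 1.06 to 28.0 CPM and 3.32 to 23.5 CPM. In each list 5 of the 8 markers were highest in C2.1 and 3 were not. PTPRC, the pan-leukocyte antigen CD45, had 18 counts in C2.1 and 48 in M8.1, and CD37 had 20 counts there against 658 in C2.2 and 661 in M7.1. The markers of natural killer and T cells summed to 505 CPM in C2.1, of which the cytotoxic granule gene NKG7 gave 480 CPM, but 10 of their 12 loci were at 0 there, CD3E included. Of the 5 B cell markers only 1 was over the floor in C2.1, at a summed 1.24 CPM against 0 to 6.96 CPM and 0 to 1.85 CPM, and the antigen receptor genes CD79A and CD79B were at 0 in every pool. None of the 5 uterine epithelium markers had a count in C2.1. The summed trophectoderm level of C2.1, 4002 CPM, lay within the range of the other pools, 3072 to 9681 CPM. Its inner cell mass markers, at a summed 45.7 CPM, lay within the 41.3 to 142 CPM of the other pools, and its hypoblast markers, at 91.4 CPM, were below their 105 to 336 CPM. Whether RNA of such cells has a part in the results below was not tested, and most comparisons are therefore followed by their values without C2.1.

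**Figure D1:**
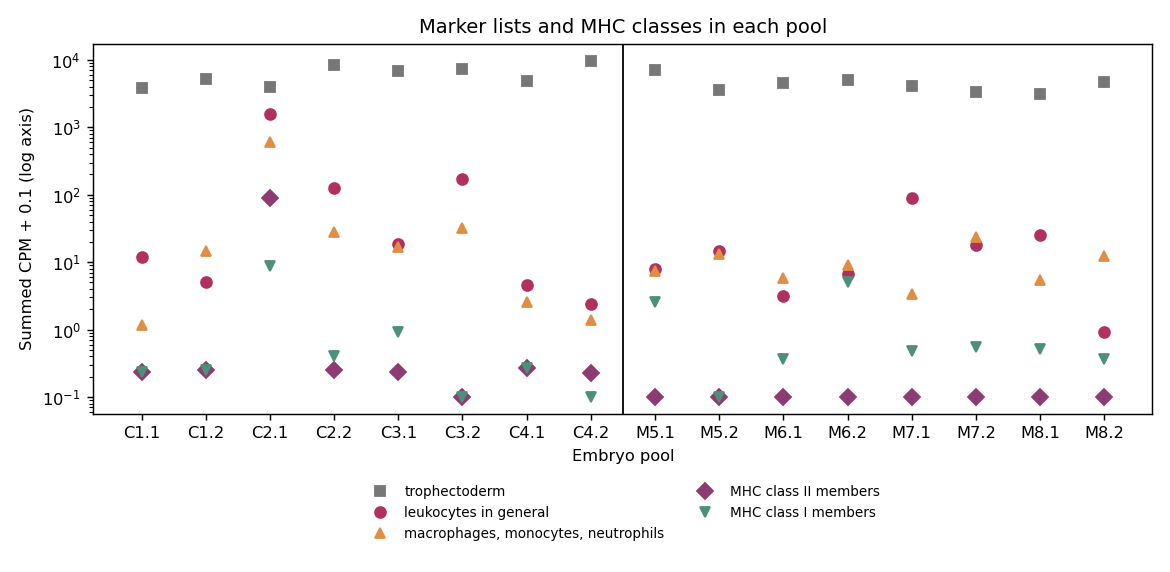
Summed CPM of marker lists and of the MHC classes in each pool, with 0.1 added for the logarithmic axis; points at 0.1 stand for a sum of 0. The leukocyte markers, at 1557 CPM, the myeloid markers, at 613 CPM, and the class II members, at 90.3 CPM, were highest in C2.1. The trophectoderm markers stayed between 3072 and 9681 CPM in all 15 pools used.

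Counts of the MHC loci other than B2M were scarce in these pools. Of the 21 loci, 14 had at least 1 count in the 15 pools, which is 66.7% against 77.9% of all loci. The 7 without any count were both BOLA-A loci, BOLA-DYA, BOLA-DQB, BOLA-DQA2, MIC1 and MIC2. Reads that map equally well to several loci can be lost at counting, so a locus without a count is not shown to lack transcript. Only B2M was over the floor in every pool, or 4.76% of the members against 25.9% of all loci. The filter of the study's methods, a summed level of at least 15 CPM over the pools, kept 4 members, which is 19.0% against 47.0% of all loci: B2M, BLA-DQB, TAPBP and TAP2 at locus XLOC_011783. The other 17 members were given by their counts and not tested.

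The few counts that the members had were gathered in single pools. Of the 12 members with 10 or more counts, 5 had their highest CPM in C2.1, or 41.7% against 7.59% of the 14579 loci with as many counts. The pool with the most counts of a member held a median of 56.5% of its counts over the 15 pools, against 26.3% for all loci with 10 or more. In C2.1 a count was found at 12 members, of which 9 were over the floor, and in the other 14 pools at 2 to 9 members, of which 1 to 6 were over the floor. The pool with the fewest was M5.2, in which only B2M and 2 counts of TAPBP were seen.

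**Figure D2:**
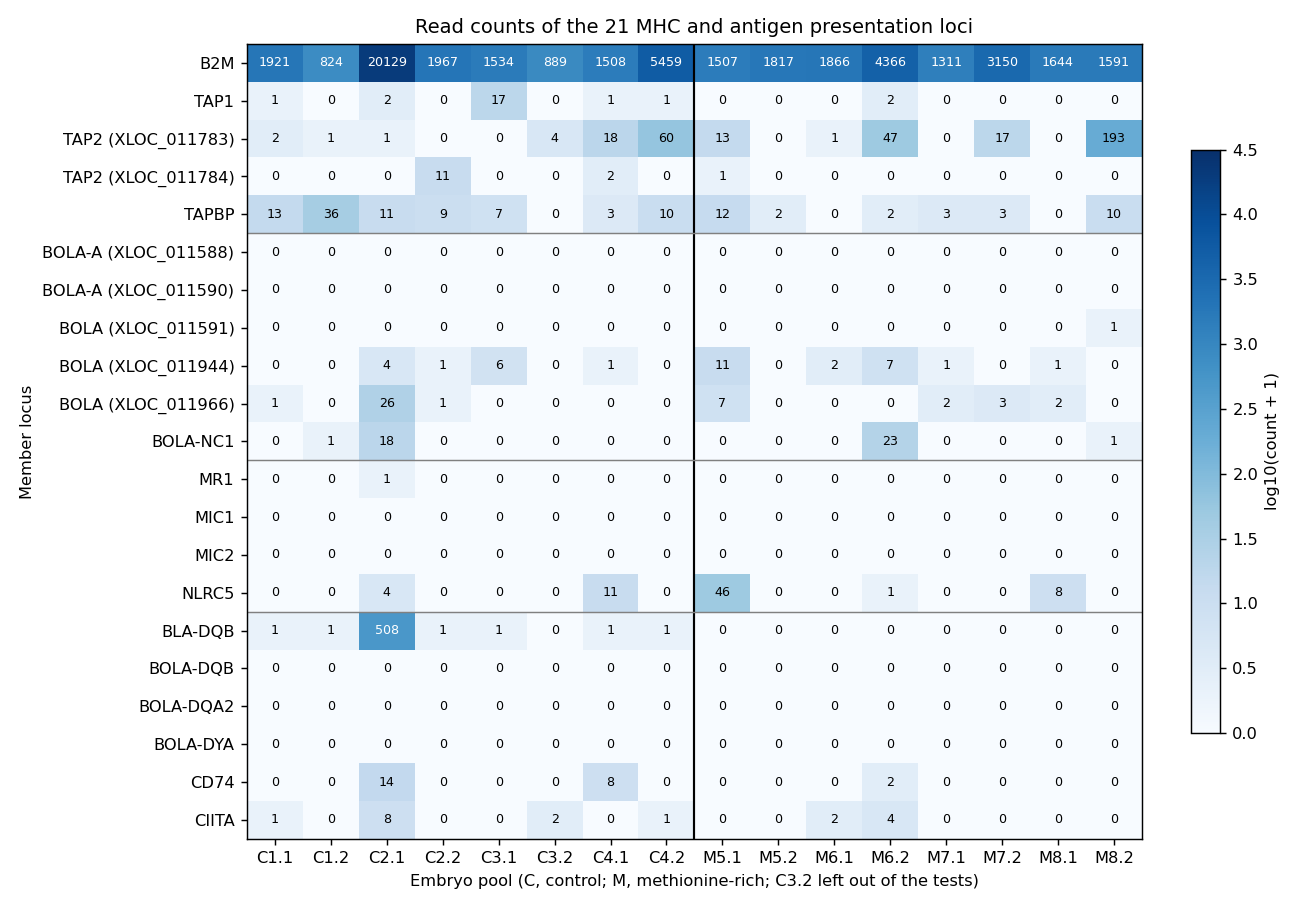
Read counts of the 21 member loci in the 16 pools, with control pools left and methionine-rich pools right of the line; shading is log10(count + 1). B2M had 824 counts or more in every pool, BLA-DQB had 508 counts in C2.1 and 1 count in each of 6 further control pools, and 7 loci had no count.

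B2M, the light chain shared by all class I molecules, was the one member found at high level throughout. It had between 824 and 20129 counts in each of the 15 pools. Its level was 124 CPM in the lowest control pool, 253 CPM at the median and 3579 CPM in the highest, C2.1. In the methionine-rich pools the lowest level was 168 CPM, the median 234 CPM and the highest 735 CPM. C2.1 lay far above all other pools, and the other 6 control pools, at 124 to 702 CPM, overlapped with the methionine-rich ones. The log2 fold change of the methionine-rich over the control pools was -1.38 (edgeR exact test, Benjamini-Hochberg adjusted p = 0.342), and it was 0.10 with an adjusted p of 1 without C2.1. DESeq2, which in groups of this size replaces counts far from the rest of their group before it estimates a fold change, gave 0.11 with an SE of 0.36.

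Both pools of a cow could differ widely in B2M. Cow 2 gave 3579 and 304 CPM, cow 4 gave 249 and 702 CPM, cow 6 gave 254 and 735 CPM and cow 7 gave 168 and 479 CPM. The pools of cow 5, at 208 and 240 CPM, and of cow 8, at 229 and 215 CPM, lay close together. The cow means were 188, 1942, 207 and 475 CPM under the control and 224, 495, 323 and 222 CPM under the methionine-rich treatment, and overlapped. Their difference, -387 CPM, did not pass a two-sided exact permutation test over the 8 cows (p = 0.714), nor did the 22.1 CPM that remained without C2.1 (exact permutation p = 0.686). With 4 cows in each group, 0.0286 is the smallest p that test allows.

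**Figure D3:**
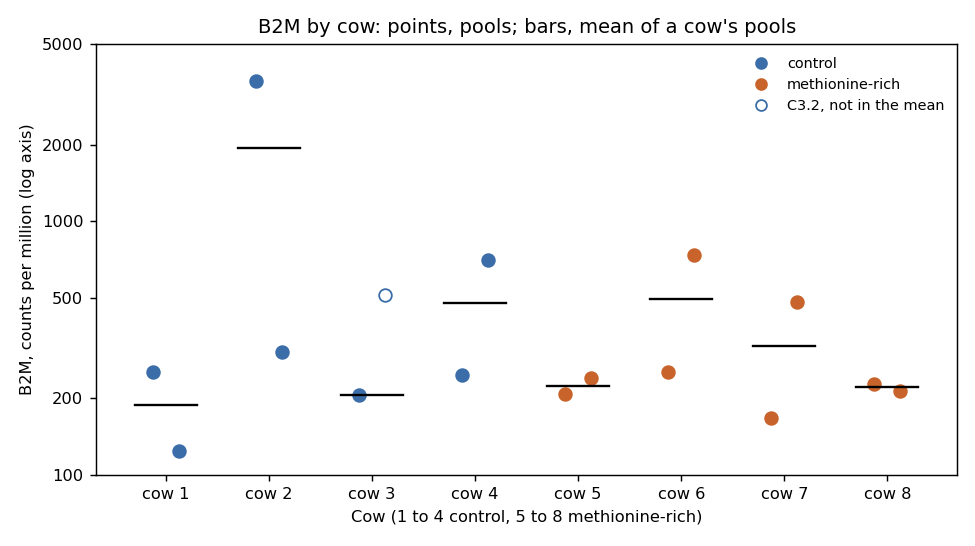
B2M level in CPM on a logarithmic axis for each pool (points) and the mean of a cow's pools (bars), with cows 1 to 4 on the control and cows 5 to 8 on the methionine-rich diet; the open point is C3.2, at 509 CPM. Apart from C2.1 at 3579 CPM, the pools used lay between 124 and 735 CPM and the cows of both groups overlapped.

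The peptide transporter was detected in some pools and missed in others. TAP1, a subunit of the transporter, had 17 counts in C3.1 and at most 2 in any other pool. TAP2, the other subunit, was split over 2 loci. At XLOC_011783 it had 0 to 60 counts in the control pools, with a median level of 0.18 CPM and a highest of 7.71 CPM in C4.2. In the methionine-rich pools it had 0 to 193 counts, with a median of 0.96 CPM and a highest of 26.1 CPM in M8.2. This locus had a count in 10 of the 15 pools, both groups spanned from 0 to their highest pool, and both pools of a cow could be far apart, as in cow 8 with 0 and 193 counts. The log2 fold change was 1.65 (edgeR exact test, Benjamini-Hochberg adjusted p = 0.968), and the cow means overlapped (exact permutation p = 0.371). Without C2.1 it was 1.52. DESeq2 gave -0.02 with an SE of 1.61, and leaving out 1 cow at a time moved the exact test's value between 0.32 and 5.15. At XLOC_011784 there were 11 counts in C2.2, 2 in C4.1 and 1 in M5.1.

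TAPBP, which encodes tapasin, lay lower in most methionine-rich pools, but the difference did not pass the test. In the control pools it had 3 to 36 counts, at 0.49 CPM in the lowest, 1.39 CPM at the median and 5.40 CPM in the highest pool, C1.2. In the methionine-rich pools it had 0 to 12 counts, at 0 CPM in the lowest, 0.36 CPM at the median and 1.65 CPM in the highest. The groups overlapped, since M5.1 with 12 counts and M8.2 with 10 lay among the control pools. The log2 fold change was -1.84 (edgeR exact test, Benjamini-Hochberg adjusted p = 0.691), DESeq2 gave -1.88 with an SE of 0.95, and the difference of the cow means was -1.21 CPM (exact permutation p = 0.0857). Without C2.1 the log2 fold change was -1.80 and the difference of the cow means -1.14 CPM (exact permutation p = 0.0857).

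Class I heavy chains were close to or under the floor in most pools. Summed over the 6 loci, the control pools had between 0 and 48 counts, the highest in C2.1. The methionine-rich pools had between 0 and 30 counts, the highest in M6.2. Over the floor were C2.1 and C3.1, with 48 and 6 counts, and M6.2 and M5.1, with 30 and 18 counts. The median summed level was 0.16 CPM in the control and 0.40 CPM in the methionine-rich pools, the first under and the second within the range of the floor, 0.383 to 0.533 CPM.

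The class I locus found in the most pools was BOLA at XLOC_011944, with counts in 4 control and 5 methionine-rich pools and at most 11, in M5.1. BOLA at XLOC_011966 had 26 counts in C2.1, 7 in M5.1 and at most 3 in any other pool. BOLA-NC1, a non-classical class I gene, had 23 counts in M6.2, 18 in C2.1 and 1 in each of C1.2 and M8.2. These loci differed in which pools they were found in: M6.2 held most of BOLA-NC1 and none of XLOC_011966. BOLA at XLOC_011591 had 1 count, in M8.2. Class I genes are near copies of each other and differ between animals. Reads that map equally well to several of them can be lost or shared out when they are counted. The values of single class I loci are therefore uncertain, and so is their sum where reads are lost.

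Averaged over cows, class I heavy chains summed to 1.36 CPM under the control and 1.17 CPM under the methionine-rich treatment, a difference of -0.20 CPM. The direction was not stable. Without C2.1 the methionine-rich cows were 0.83 CPM higher, without cow 7 or cow 8 they were 0.051 or 0.077 CPM higher, and by the median over pools the difference was 0.24 CPM. Without cow 6 the methionine-rich mean was 0.67 CPM and the difference -0.70 CPM. Over the pools, class I summed to 59 counts in the control, 48 of them in C2.1, and 61 counts in the methionine-rich treatment.

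The class I-like genes had nearly no counts. MR1, which shows vitamin B metabolites to a class of T cells, had 1 count, in C2.1, and the stress-ligand genes MIC1 and MIC2 had none. NLRC5, the transactivator of class I genes, had 46 counts in M5.1, 11 in C4.1, 8 in M8.1, 4 in C2.1, 1 in M6.2 and none in the other 10 pools used. M5.1, with the most NLRC5, had 18 class I counts, while C4.1 and M8.1 had 1 and 3.

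The class II chains among the members were seen in control pools only, and nearly all their counts came from C2.1. This is a statement about the name rule, since HLA-DMA, a class II gene outside it, had 497 counts in the methionine-rich pools. Of the 4 class II loci, 3 had no count in any pool, so that class II stands for BLA-DQB, a DQ beta chain gene at locus XLOC_011562 that the RefSeq gene table lists as a synonym of BOLA-DQB1. BLA-DQB had 508 counts in C2.1, exactly 1 count in each of the other 6 control pools and none in the 8 methionine-rich pools or in C3.2. C2.1 held 98.8% of the counts, and apart from it no pool was over the floor. At group level the control pools were at 13.0 ± 34.1 CPM (SD, n = 7) with a median of 0.15 CPM, and the methionine-rich pools at 0. Pooled over the libraries, BLA-DQB was at 10.8 CPM in the control, at least 205-fold higher than the 0.0525 CPM that 3 counts over all the methionine-rich pools would give. That bound rested on C2.1: without it the control was at 0.14 CPM, from 6 counts. Each of these was a single read under the floor of its pool, so no minimum fold is given without C2.1.

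By the exact test BLA-DQB passed the threshold of an adjusted p under 0.10 with a difference of at least 2-fold (log2 fold change -9.64, edgeR exact test, Benjamini-Hochberg adjusted p = 0.00357). It was the only member of the 4 tested that did, where 0.77% of all 10519 loci tested were called higher in the control and 0.276% higher in the methionine-rich pools. It had passed the filter only through C2.1, where it was high. The quasi-likelihood test of edgeR, which carries the uncertainty of each locus's spread into the test, gave an adjusted p of 0.312 (Benjamini-Hochberg). That test called 0% of all loci, with 909 of them at an unadjusted p under 0.05. DESeq2 gave a log2 fold change of -2.24 with an SE of 3.04 and no adjusted p for this locus. Without C2.1, BLA-DQB did not reach the filter and could not be tested.

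The cows did not overlap in BLA-DQB: every control cow had a mean above 0 and every methionine-rich cow was at 0. Their difference was -11.4 CPM (two-sided exact permutation p = 0.0286, the smallest possible with 8 cows). Among all loci tested, the cows did not overlap at 1.05% with the control higher and at 1.16% with the methionine-rich treatment higher. Without C2.1 the cows still did not overlap, by -0.14 CPM (exact permutation p = 0.0286). This rested on 6 counts in 6 pools, each a single read under the floor, and the separation with C2.1 included needs the same reads. The locus did not reach the filter without C2.1, so the shares of all loci tested do not apply and no conclusion is drawn. Taking counts below 1% of the highest count of their locus as 0 removes these single reads by construction and left C2.1 alone. The permutation p was then fixed at 1, since with 1 cow above 0 every assignment gives a difference of the same size.

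**Figure D4:**
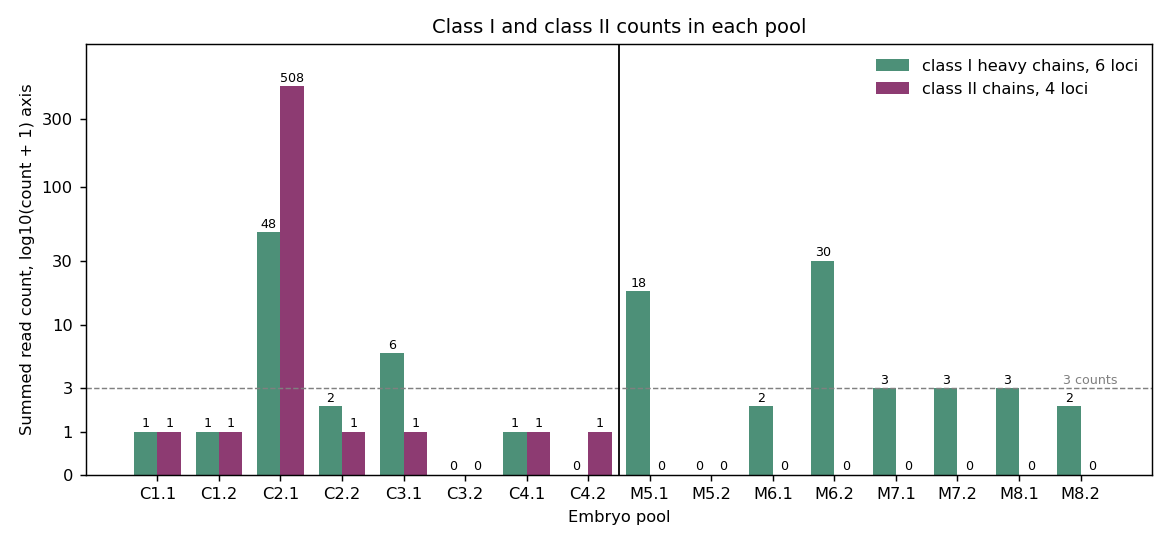
Summed read counts of the 6 class I heavy chain loci and the 4 class II chain loci in each pool, drawn as log10(count + 1) with the counts above the bars; the dashed line marks the floor of 3 counts. Class II exceeded the floor in C2.1 alone, with 508 counts, and was 0 in all methionine-rich pools, whereas class I exceeded it in 2 control and 2 methionine-rich pools.

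Set against each other within a pool, the class I members had more counts than the class II members in 9 of the 15 pools. They had fewer in 2, which were C2.1 and C4.2, and as many in 4. Class II is BLA-DQB alone in these shares. Counts of different genes are not per length, and the comparison is of shares between pools rather than of levels between classes. In C2.1 class II made up 91.4% of the class I and class II counts (95% Wilson interval 88.7 to 93.4%). In the other 6 control pools together it made up 35.3% (17.3 to 58.7%), from 6 of 17 counts. In the methionine-rich pools it was 0% of 61 counts, with an upper limit of 5.92%. These intervals take every read as independent, which amplified reads without molecular identifiers are not, so they are too narrow even for counting error. They do not cover the spread between pools. With C2.1 included, the control share was 89.7% (86.9 to 91.9%).

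The partners of class II were also scarce. CD74, the invariant chain that escorts class II to the endosome, had 14 counts in C2.1, 8 in C4.1 and 2 in M6.2. CIITA, the transactivator of class II genes, had 8 counts in C2.1, 4 in M6.2, 2 in each of M6.1 and C3.2, and 1 in each of C1.1 and C4.2. C2.1 thus had the most counts of BLA-DQB, CD74 and CIITA, but CD74 and CIITA were found in methionine-rich pools as well, where BLA-DQB was not.

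LOC100848815, a DQ alpha chain-like gene that is no member but lies next to BOLA-DQB1 in the RefSeq gene table, had the same shape. The study lists this gene among its most significant ones from these same data. It was therefore chosen with its result known and is no independent support for BLA-DQB. It had 606 counts in C2.1, 2 in C1.2, 1 in each of C3.1 and C4.2, and none in the methionine-rich pools. Its log2 fold change was -9.89 (edgeR exact test, Benjamini-Hochberg adjusted p = 0.0104) and its adjusted p by the quasi-likelihood test was 0.312. It had passed the filter only through C2.1 and could not be tested without that pool. The genes listed as HLA-DMA and HLA-DMB, whose products exchange peptides on class II, and JSP.1, a class I name, were singled out after their values were seen. HLA-DMA was not bound to C2.1: it had 308 counts there but also 313 in M8.2, 113 in M5.1, 52 in M7.2 and at most 13 in any other pool, with a log2 fold change of -0.07 (edgeR exact test, Benjamini-Hochberg adjusted p = 1). Without C2.1 it had 17 counts in the control and 497 in the methionine-rich treatment, with a log2 fold change of 4.26 (edgeR exact test, Benjamini-Hochberg adjusted p = 0.480). HLA-DMB had 60 counts in C2.1 and 3 in M6.2. JSP.1 had 26 counts in all, 9 of them in C2.1.

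Beyond the members, 55 genes that make, trim or route peptides, build the class II promoter complex, signal from interferon receptors or resemble MHC genes were followed in 7 lists, of which 47 were found and 39 tested. Of these, 1 was called, IFNGR2, against the 0.77% of all loci tested called higher in the control. None was called higher in the methionine-rich pools. The quasi-likelihood test called none of the 39, as it called none of all loci. The median log2 fold change was -0.38 over the 39 and -0.05 over all loci tested, and without C2.1 it was -0.10 over the 33 that could be tested and -0.01 over all loci. Of the 46 with 10 or more counts, 15 had their highest level in C2.1, against 7.59% of all loci with as many counts. They were 6 of the interferon list, 4 of class II peptide processing, 4 MHC-like genes and 1 of the immunoproteasome and activator list. The other lists had none.

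IFNGR2, a chain of the interferon gamma receptor, had 358 counts in C2.1, 13 in C4.1, 1 in C1.1, 2 in M6.1, 1 in M8.2 and none in the other pools. The groups overlapped, with a median of 0 in both. Its log2 fold change was -7.20 (edgeR exact test, Benjamini-Hochberg adjusted p = 0.0962), the quasi-likelihood test gave an adjusted p of 0.302, and without C2.1 it did not reach the filter. When 1 cow at a time was left out, it was called without cow 1, 3 or 4 and not without cow 2, 5, 6, 7 or 8. IFNGR1, the other chain of that receptor, was found in all 15 pools, with a median of 14.8 CPM in the control and 6.59 CPM in the methionine-rich pools. Its log2 fold change was -1.14 (edgeR exact test, Benjamini-Hochberg adjusted p = 0.830), and -0.65 without C2.1. JAK1, the kinase that carries its signal, had medians of 11.0 and 8.86 CPM and a log2 fold change of -0.12, and of -0.15 without C2.1. In this list 11 of 13 loci were tested, with a median log2 fold change of -0.83, and of 0.25 over the 9 tested without C2.1.

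Genes of the standard proteasome were found in every pool, and their group means lay close together. PSMB5, a catalytic subunit of the standard proteasome, lay between 379 and 808 CPM, with a mean of 615 ± 133 CPM (SD, n = 7) in the control and 646 ± 100.1 CPM (SD, n = 8) in the methionine-rich pools. PSMB7, another catalytic subunit, lay between 101 and 359 CPM, at 201 ± 80.5 CPM and 199 ± 42.7 CPM. None of the 3 standard subunits was called and their median log2 fold change was 0.01, and -0.01 without C2.1. Of the 6 genes of the immunoproteasome and of proteasome activators, none was called either, at a median of -0.27, and of -0.16 without C2.1. The immunoproteasome subunits PSMB8, PSMB9 and PSMB10, singled out after their values were seen, had counts in 11, 15 and 13 of the 15 pools. Their log2 fold changes were -1.55, -0.27 and -1.62, and -1.16, -0.10 and -0.64 without C2.1. Of the activator genes, PSME1 was at 77.1 ± 23.7 and 81.9 ± 14.8 CPM, and PSME3 at 78.1 ± 46.0 and 65.7 ± 19.0 CPM, in the control and the methionine-rich pools. Their log2 fold changes without C2.1 were 0.11 and -0.21.

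Of the genes that trim peptides or help class I fold, 4 of 6 were tested and none was called, at a median log2 fold change of -0.35, and of -0.17 without C2.1. CALR, the chaperone calreticulin, ranged from 281 to 2657 CPM over the pools, with medians of 898 CPM in the control and 804 CPM in the methionine-rich pools. Its log2 fold change was -0.38, and -0.09 without C2.1. PDIA3, the oxidoreductase of the class I loading complex, had higher cow means in the methionine-rich treatment, without overlap. Single pools did overlap, with 41 counts in C4.1 and 291 in C4.2 against 110 in M7.2 and 285 in M6.1. PDIA3 was at 17.6 ± 9.54 CPM in the control and 31.1 ± 6.87 CPM in the methionine-rich pools. Its log2 fold change was 0.83 (edgeR exact test, Benjamini-Hochberg adjusted p = 0.678), and the exact permutation p over the cows was 0.0286. The quasi-likelihood test gave an adjusted p of 0.466. Without C2.1 the log2 fold change was 0.90. It was the only one of the 39 whose cows did not overlap, where 1.16% of all loci were apart in that direction.

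Genes of the class II promoter complex were found in both groups. NFYC, a subunit of the general promoter factor NF-Y, had a median of 62.2 CPM in the control and 99.5 CPM in the methionine-rich pools. The groups overlapped and the log2 fold change was 0.58 (edgeR exact test, Benjamini-Hochberg adjusted p = 0.783), and 0.61 without C2.1. NFYB, another subunit, was at 10.8 ± 6.62 and 15.2 ± 10.3 CPM. Of the 7 loci 6 were tested, none was called, and the median log2 fold change was 0.43, and 0.49 without C2.1. RFX5, a promoter-binding subunit singled out after its values were seen, went from 0.41 to 4.64 without C2.1, where its adjusted p was 0.377 (edgeR exact test, Benjamini-Hochberg).

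Among the genes that process class II peptides, 6 of 7 were tested and none was called, at a median log2 fold change of -1.10 and of -0.23 over the 5 tested without C2.1. CTSB, the lysosomal protease cathepsin B, was at 76.8 CPM in the lowest pool and 1582 CPM in the highest, C2.1, with medians of 145 CPM in the control and 172 CPM in the methionine-rich pools. Its log2 fold change was -1.34 (edgeR exact test, Benjamini-Hochberg adjusted p = 0.308), and -0.23 without C2.1. CTSL1, a cathepsin L gene, lay between 83.5 and 263 CPM, with medians of 111 CPM in the control and 180 CPM in the methionine-rich pools, and was not highest in C2.1. The protease CTSS, which trims the invariant chain, with 1439 counts in C2.1, and the thiol reductase IFI30, with 550 counts there, were singled out after their values were seen. CTSS was called when cow 7 was left out, and could not be tested without C2.1.

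Of the MHC-like genes, 5 were found, 3 were tested and none was called. CD1A and CD1E, which encode lipid-presenting molecules, had 272 and 205 counts in C2.1. CD1A was found in 8 of the 15 pools and CD1E in 4, with group medians of 0.13 and 0.17 CPM for CD1A and 0 in both groups for CD1E. Their log2 fold changes were -3.71 and -4.31 (edgeR exact test, Benjamini-Hochberg adjusted p = 0.454 and 0.678), and none of the 3 could be tested without C2.1.

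**Figure D5:**
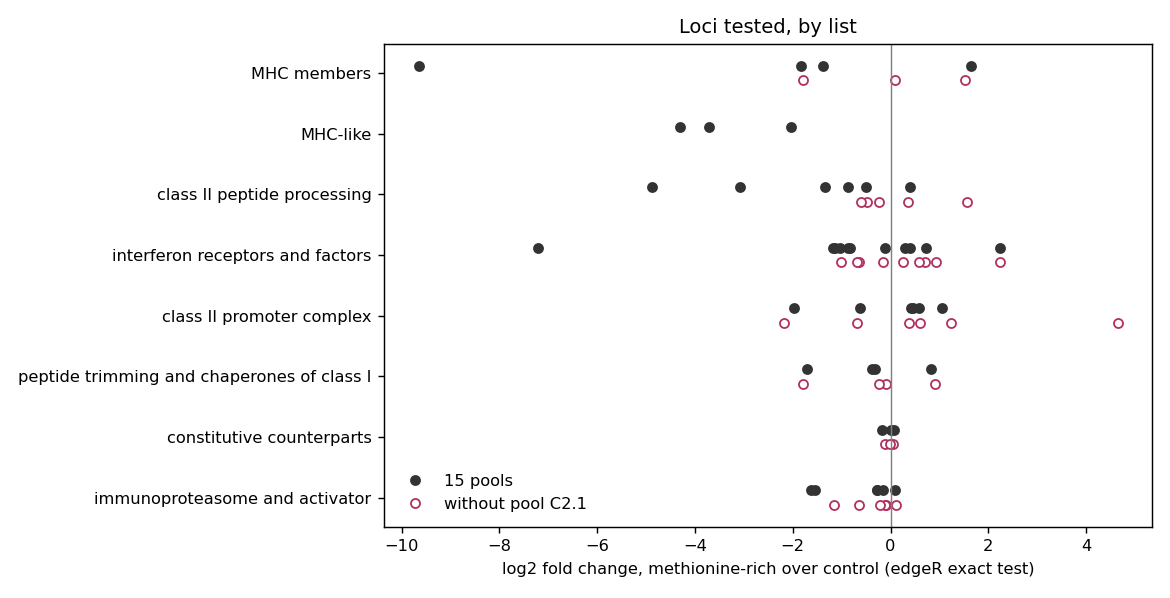
Log2 fold change of the methionine-rich over the control pools for each tested locus of the 7 lists and the members, by the exact test on all 15 pools (filled) and without C2.1 (open); loci that fall under the filter without C2.1 have no open point. The values far below 0, BLA-DQB at -9.64 and IFNGR2 at -7.20, have no open counterpart, and the standard proteasome subunits lie near 0.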

How the data were processed

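Read counts per locus were deposited for each of the 16 pools. The authors amplified the RNA, sequenced single-end reads on an Illumina HiSeq, mapped them to bosTau7 with TopHat (submitters' processing notes: TopHat2 2.0.4) allowing 2 mismatches and up to 40 locations, merged Cufflinks 2.0.2 transcript models with the reference annotation, and counted reads with htseq-count in intersection-nonempty mode. How reads with several locations and the strand were treated at counting, and which pools shared a lane, is not given in the sources used here.

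Rows that gave 1 locus under several names (182 loci) were taken once, leaving 22358 loci from 22552 rows, and counts were divided by the pool total for CPM. Following the study's methods, pool C3.2 was left out, loci with a summed CPM of at least 15 were kept (10519), and the 7 control and 8 methionine-rich pools were compared with TMM normalization and the exact test of edgeR 4.0.16 in R 4.3.3. P-values were adjusted by Benjamini-Hochberg over all loci tested, and a locus was called at an adjusted p under 0.10 with at least a 2-fold difference. That test takes the pools of a cow as independent, so cow means were also compared by a two-sided exact permutation test over the 70 assignments of 8 cows. The quasi-likelihood test, DESeq2 1.42.0 (outlying counts replaced by its default), voom in limma 3.58.1 with cows as a random effect, the pools of a cow summed, other filters and scalings, C2.1 or each cow left out and a replicate block on the pool number were tried.

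All members are named. From each pathway list the genes called and the 2 with the highest mean CPM are named, and others only where said to be singled out. Members, lists and tests were chosen with earlier results of these data known. CPM is not per gene length, so levels of different genes are not compared. Gene names were looked up in a RefSeq gene table of another assembly than the files' (19 of 21 loci matched, 18 of them by symbol). Of its coordinates, only the order of the genes around BOLA-DQB1 was used, which is not shown for the files' assembly.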

Additional observations from a re-analysis of the deposited data

Results flagged for a closer look

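A pool was taken as far from its group when its gap to the nearest other pool exceeded Dixon's critical value for the range of the group. This held for 17 of 23 groups of values examined. Chance gives about 1 in 20 for normally distributed values, but most of these groups are skewed counts near 0, for which that share does not hold, and the class II sum repeats the values of BLA-DQB. In the control, C2.1 stood apart for B2M at 3579 CPM, for BLA-DQB and thus the class II sum at 90.3 CPM, for the class I sum at 8.53 CPM, for BOLA at XLOC_011966 at 4.62 CPM, for BOLA-NC1 at 3.20 CPM and for CIITA at 1.42 CPM. Other control pools stood apart for other members: C1.2 for TAPBP at 5.40 CPM, C2.2 for TAP2 at XLOC_011784 at 1.70 CPM, C3.1 for TAP1 at 2.29 CPM, C4.1 for NLRC5 at 1.81 CPM and C4.2 for TAP2 at XLOC_011783 at 7.71 CPM. In the methionine-rich treatment, M5.1 stood apart for NLRC5 at 6.34 CPM and BOLA at XLOC_011966 at 0.965 CPM, M6.2 for BOLA-NC1 at 3.87 CPM and CIITA at 0.673 CPM, and M8.2 for TAP2 at XLOC_011783 at 26.1 CPM. Most of these levels come from fewer than 50 counts.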

How the results depend on the processing

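BLA-DQB, the 1 member called, was called in 0 of the alternatives that used the quasi-likelihood test, voom with cows as a random effect, at least 10 counts in every pool, small counts set to 0, C2.1 left out, or the pool number as a replicate block (0 members called, quasi-likelihood test). DESeq2 called 0 members and gave BLA-DQB no adjusted p. Leaving out 1 cow at a time gave 0 to 1 members called, with 0 without cow 2, where BLA-DQB fell under the filter. The call was kept with the pools of a cow summed, another scaling, no filter, all 16 pools, each row tested separately and an adjusted p under 0.05. Of the pathway genes, the 1 called became 0 under the quasi-likelihood test, DESeq2, voom, summed pools, no filter, at least 10 counts in every pool, C2.1 left out, the replicate block, small counts set to 0 and an adjusted p under 0.05, and 0 to 1 when a cow was left out. That gene was IFNGR2 in the comparison and without cow 1, 3 or 4, and CTSS without cow 7. IFNGR2 could not be tested without C2.1 or with at least 10 counts in every pool. The class II share of class I and class II counts differed by -89.7 percentage points between the treatments, by -35.3 without C2.1 and by -90.6 to -35.7 when a cow was left out. The class I difference, -0.20 CPM over cows, turned to 0.83 without C2.1 and 0.24 by the median over pools, and lay between -0.70 and 0.82 when a cow was left out. The number of members whose cows did not overlap went from 1 to 0 with small counts set to 0, an alternative for the cow means chosen after seeing the data. That setting removes the single reads of BLA-DQB by construction. The loci called in all were 110, against 0 by the quasi-likelihood test, 0 by voom, 0 with at least 10 counts in every pool, 0 with the replicate block, 67 by DESeq2, 55 with no filter, 60 at an adjusted p under 0.05, 64 without C2.1, 42 with small counts set to 0, 341 with all 16 pools and 62 to 153 when a cow was left out. The causes of these changes were not tested. Depth limits the class I and class II values: outside C2.1, no class II count of a member and few class I sums exceeded 3 counts.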

Other observations

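Loci whose counts were nearly confined to 1 pool were counted after the single reads of BLA-DQB were seen, with at least 500 counts in that pool and at least 98% of all 16 pools' counts. For the 12 such loci of C2.1, BLA-DQB among them, the remaining counts came from 7 other control pools, C3.2 included, and 8 methionine-rich pools. The control pools held 138 of these counts and the methionine-rich pools 36, which is 79.3% in the control. At 11 of the 12 loci more of them lay in the control. For all 36 such loci whose pool was a control pool, 604 of the remaining counts came from control pools and 163 from methionine-rich ones, or 78.7% in the control. For the 3 loci whose pool was a methionine-rich pool, 11 of the remaining counts lay in the other methionine-rich pools and 5 in the control. These loci were picked from the same counts and no share over all loci is given, so no conclusion is drawn from these shares. Like BLA-DQB, the leukocyte genes LAPTM5, with 6969 counts in C2.1, TYROBP, with 2122, and NKG7, with 2698, had no count in any methionine-rich pool. LAPTM5 had 3 to 7 counts in every other control pool, C3.2 included, a shape close to that of BLA-DQB. TYROBP had at most 4 counts and NKG7 at most 191 in another control pool. Other marker genes high in C2.1 did have counts in methionine-rich pools: LYZ had 776 counts in C2.1 and 29 in the methionine-rich pools, SPI1 442 and 20, CD53 431 and 8, ITGB2 226 and 3, and LCP1 1031 and 1. The cause was not tested.

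Pool C3.2, which the comparisons leave out, had 889 counts of B2M (509 CPM), 4 of TAP2 at XLOC_011783, 2 of CIITA and none of any class I heavy chain or class II chain, at a floor of 1.72 CPM. Its general leukocyte markers summed to 173 CPM, mostly from 278 counts of PTPRC, while LCP1, CORO1A, ITGB2 and RAC2 had none. Its myeloid markers summed to 31.5 CPM, mostly from 49 counts of CSF1R, while FCER1G, AIF1, CD14, CD68 and SPI1 had none. CSF1R was over the floor in 13 of the 15 pools used.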
